A study of Mus musculus with 98 samples.

Results

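The comparison was between a pair of PCRs on the recombination substrate of one mouse pre-B cell line, Ligase IV -/- H2AX -/- line 8 (CJ #148). The first PCR was made for what the labels call de novo double-strand breaks (DSBs), and the second, the regular substrate PCR, was made for breaks that the RAG recombinase cut at the recombination substrate. Its 2 tables were chosen by their group labels. They hold 6 libraries in 12 read files (3 libraries for each PCR), out of 49 libraries in 98 read files and 17 groups in the whole series. The Abelson virus oncogene had made these pre-B cells grow as a line, they were held in G1, and both groups lack DNA ligase IV and the histone variant H2AX. By their descriptions both groups come from 1 cell line, so they say nothing of the spread between H2AX-deficient lines.

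The labels say little else of how the groups differ. The regular libraries carry a time of 48 h in their titles and belong to sequencing run set 2, whereas the de novo libraries carry no time and belong to set 5. The titles of the de novo libraries also carry the number 110 where the descriptions of both groups give 148. Their descriptions add that the reads came mixed with those of the regular substrate PCR and have to be picked out by primer. Primer, sequencing run, time, kind of break and whatever the number 110 marks therefore cannot be told apart in any difference given here. The labels do not define de novo further, and they do not say what removed or kept the mixed reads in the deposited table.

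A chromosomal break is normally rejoined in G1 by non-homologous end joining, whose last step needs DNA ligase IV, so in cells without it broken ends persist. RAG cuts between a recombination signal and the neighbouring coding segment, which gives a hairpin-sealed coding end and a blunt signal end. The coding hairpin is opened by the Artemis nuclease. H2AX is phosphorylated in the chromatin around a break and is known to limit the trimming of such ends in G1 cells. When nucleases remove the 5'-ending strand, an end is left with a 3' overhang, and when the 3'-ending strand is the shorter one it is left with a 5' overhang. HCoDES (hairpin capture of DNA end structures) joins both strands of an end with a single-stranded DNA ligase and reads across the joint. Each end structure is then a pair of strand stops, which gives the overhang to the nucleotide. The bases of the substrate are not printed because no sequence of it was used here.

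In both tables a structure is listed by the position at which the 5'-ending strand stops, its overhang in nucleotides (nt) and its reads. The 3'-ending strand stops at the position minus the overhang, so a positive value is a 3' overhang, a negative value a 5' overhang and 0 a blunt end. The sign was read from the table of the restriction enzyme KpnI, which leaves a 3' overhang of 4 nt and in whose table the value 4 at a single position took 99.2% of 307425 reads. The de novo table held 68969 reads in 293 structures and the regular one 72923 reads in 700. Both list structures down to 2 reads. The 3 libraries of a group were pooled in the deposited table, so there is no replicate value, and no spread between libraries can be given. Fisher's exact tests below compare the 2 pools of reads, or of structures where each is counted once, and not the conditions. Structures are not independent units, because many share a strand stop. The 95% intervals are exact Clopper-Pearson intervals and cover counting error only, because amplified reads can be copies of one molecule.

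A single structure led the de novo table. Its 5'-ending strand stopped at position 158 and its 3'-ending strand at position 121, which is a 3' overhang of 37 nt. It held 9684 reads, 14.04% of the table (95% interval 13.8 to 14.3), and the regular table does not list that pair of numbers, whose scale may differ between the PCRs. The next structure was a blunt end at position 161 with 1416 reads (2.05%). Then came short 5' overhangs, of 4 nt at position 127 (1.85%), of 1 nt at position 148 (1.73%) and of 3 nt at position 135 (1.68%).

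The regular table had no such dominant end. Its first structure was a blunt end at position 172 with 1543 reads (2.12%). It was followed by 5' overhangs of 2 nt at positions 171 (1.81%) and 111 (1.55%), of 21 nt at position 167 (1.18%) and of 1 nt at position 171 (1.18%). The 3 most abundant structures held 17.9% of de novo and 5.48% of regular reads, and the 10 most abundant held 28.8% and 13.2%. The first 32 structures made up 50% of the de novo reads, and the regular table needed 88 for that share. Such concentration was not limited to the de novo table. The 10 most abundant structures held 39.3% of reads at the regular substrate of 53BP1 line C, 32.3% in Lig4-/- line A and 28.8% in Lig4-/- line B, and 15, 33 and 41 structures made up 50% of reads there. Their leading structures held 6.79%, 9.07% and 8.06%, less than the 14.04% of the de novo one.

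The same contrast holds for the effective number of structures, the number of equally abundant structures that would give the same evenness (the exponential of the Shannon entropy). It was 101 in the de novo table and 341 in the regular one. Without the leading structure of each table it was 133 and 348. When the regular table is thinned to 68969 reads, drawn as if independent, 692 of its 700 structures are expected to stay listed. The H2AX-deficient line 5, the other line of that genotype, had 588 structures and an effective number of 183 at the regular substrate. The gap to the de novo table was therefore smaller when line 5 stood in for line 8. The effective number was 145 in Lig4-/- line A, 174 in Lig4-/- line B and 278 in 53BP1 line B. In 53BP1 line C it was 52.1, below that of the de novo table.

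**Figure D1:**
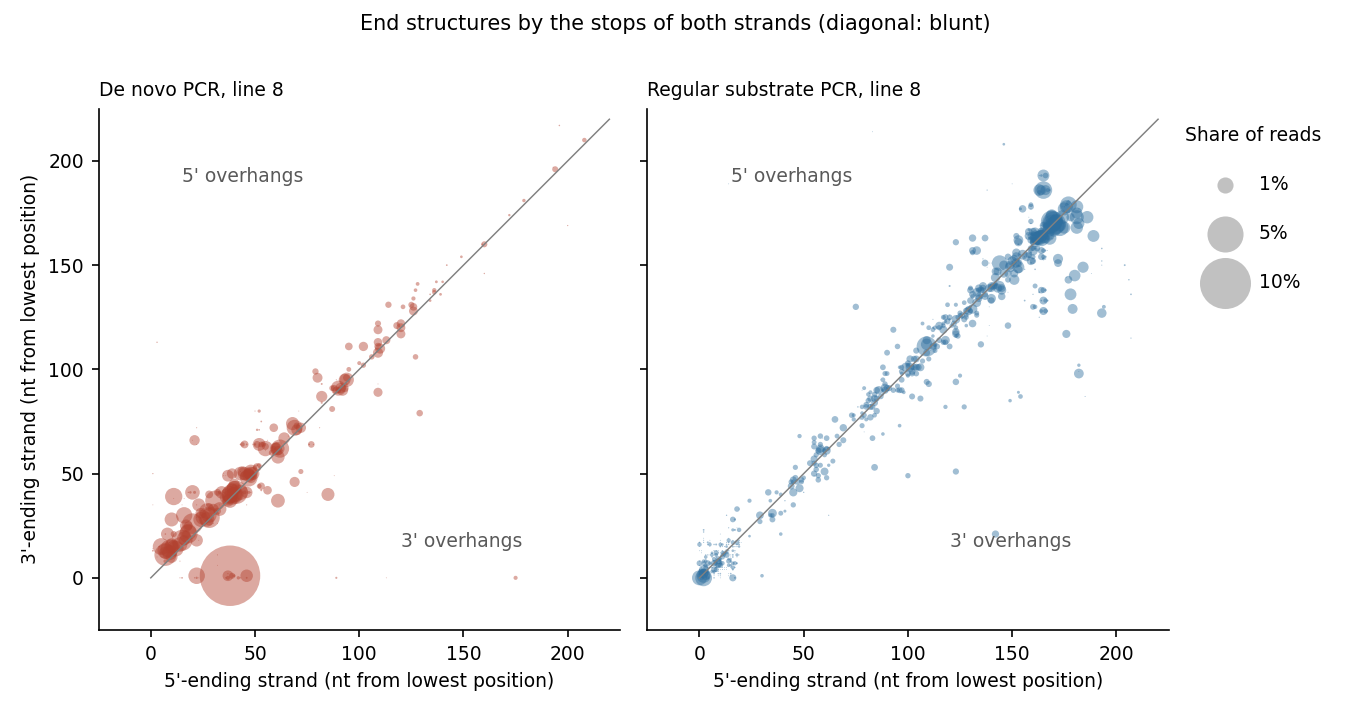
Each circle is an end structure, placed by the stop of its 5'-ending strand (horizontal) and of its 3'-ending strand (vertical), both in nt from the lowest position listed in its own table, with an area proportional to its share of reads. Circles below the diagonal are 3' overhangs and circles above it 5' overhangs. The 37-nt 3' overhang with 14.04% of de novo reads is the largest circle in the left panel, level with the lowest 3' stops, and most other de novo circles lie on or just above the diagonal.

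The de novo ends were mostly 5' overhangs, while the regular ends were split almost evenly. 5' overhangs made up 64.5% of de novo reads (64.1 to 64.8), against 41.6% (41.2 to 41.95) in the regular table, a difference of 22.9 percentage points. The share of 3' overhangs was 26.5% (26.2 to 26.9) against 45.5% (45.1 to 45.8), a difference of -18.9 points. Blunt ends took 8.99% (8.77 to 9.20) against 12.9% (12.7 to 13.2). These 3 classes and the 7 length classes below gave 10 two-sided Fisher's exact tests, adjusted by the Benjamini-Hochberg method. The adjusted p was 4.34e-126 for blunt ends and 5.30e-118 for 5' overhangs of 10 nt or more, and too small to be represented for the other 8 classes.

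The direction of the overhang was also counted in structures. Of the 293 de novo structures, 195 (66.6%) had a 5' overhang, 77 (26.3%) a 3' overhang and 21 (7.17%) were blunt. Of the 700 regular structures the numbers were 313 (44.7%), 340 (48.6%) and 47 (6.71%). With each structure counted once, the adjusted p of Fisher's exact test was 1.54e-09 for 5' overhangs and 4.53e-10 for 3' overhangs. Structures are not replicates, and 19 de novo ones, for example, share the 3' stop at position 161. For blunt ends the sign turned to 0.453 points higher in the de novo table (Fisher's exact test, adjusted p = 0.784), so the lower blunt share rests on reads and not on the number of structures. In reads its size also varied, from -3.96 points as deposited. It was -0.609 without the most abundant structure of each table, -0.321 with line 5 as the regular table and -6.87 without pairs listed in both tables.

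In reads, all 3 length classes of 5' overhangs were higher in the de novo table. Those of 1 to 4 nt held 37.1% of de novo and 25.9% of regular reads, those of 5 to 9 nt 16.1% and 7.98%, and those of 10 nt or more 11.3% and 7.69%. In the de novo table the leading structures of these classes were the 4-nt overhang at position 127, a 6-nt overhang at position 140 (1.62%) and a 28-nt overhang at position 131 (1.15%). None of them held more than 10.2% of the reads of its class, so no single structure carried the excess. With each structure counted once, the class of 5 to 9 nt was 4.07 points higher and did not pass Fisher's exact test (adjusted p = 0.131). Against Jk1 of line 8 in place of the regular table, the difference for 10 nt or more turned to -0.917 points. In the regular table the leading ones were the 2-nt overhang at position 171, a 7-nt overhang at position 146 (0.922%) and the 21-nt overhang at position 167.

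Among 3' overhangs the short and the long classes went opposite ways. Those of 1 to 4 nt held 5.99% of de novo and 23.1% of regular reads. Those of 5 to 9 nt held 1.00% and 11.1%, and those of 10 to 19 nt held 0.516% and 3.98%. Only those of 20 nt or more were more abundant in the de novo table, at 19.04% against 7.24%. In that class the 37-nt structure alone held 73.8% of the reads, and without it 5.00% of de novo reads remained, below the regular share. When both tables were stripped of their leading structure, the difference turned from 11.8 to -1.58 points. With each structure counted once, neither the class of 20 nt or more (1.81 points, adjusted p = 0.438) nor that of 10 to 19 nt (-1.73 points, adjusted p = 0.400) passed Fisher's exact test.

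The leading de novo structures of the shorter 3' classes shared a strand stop. They were a 2-nt overhang at position 163 (0.893%), a 5-nt overhang at position 166 (0.521%, 52.0% of its class) and a 14-nt overhang at position 176 (0.286%, 55.3% of its class). Their 3'-ending strands stopped at positions 161, 161 and 162, beside the blunt end at 161. The 3 neighbouring positions around 161 held 35.5% of all de novo reads with a 3' overhang of 1 to 19 nt, in 10 of 47 structures. In the regular table the 3 neighbouring positions with the most such reads held 12.9%, in 11 of 281 structures. Its leading structures of the 4 classes were 3' overhangs of 2 nt at position 173 (1.09%), 5 nt at 175 (1.09%), 13 nt at 188 (0.595%) and 25 nt at 191 (0.543%).

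**Figure D2:**
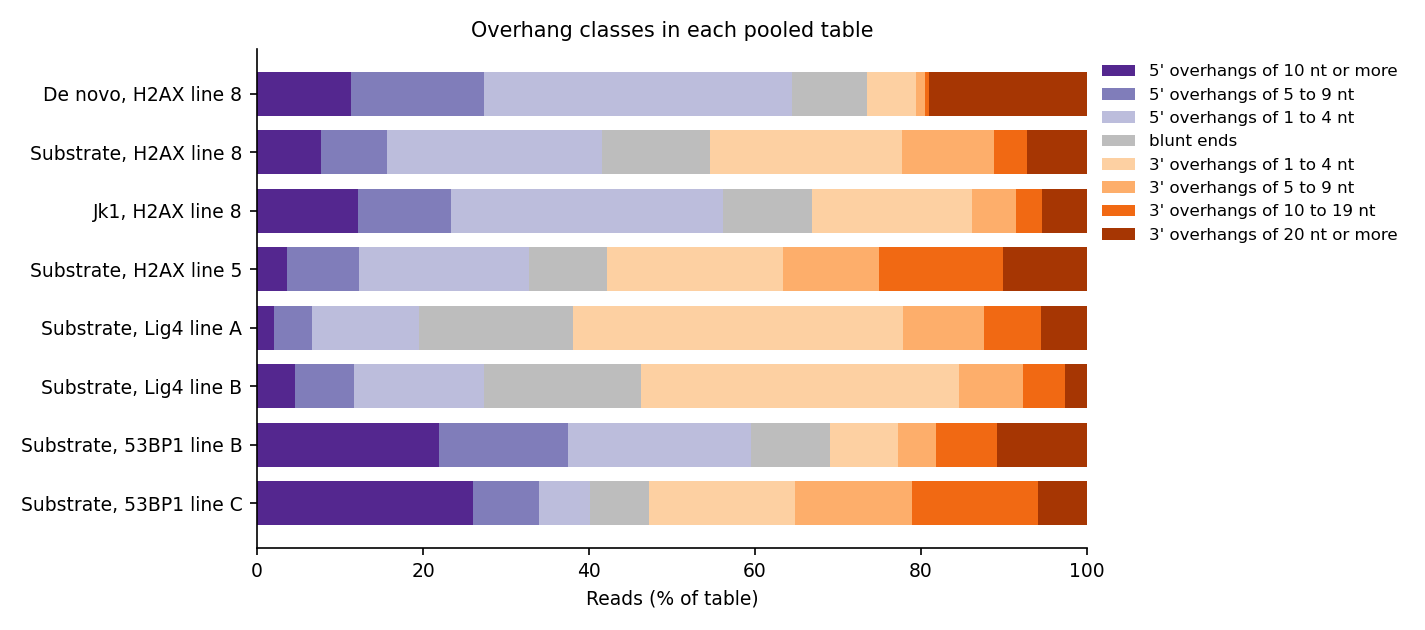
Each bar is 1 deposited table, pooled over 3 libraries, split into the percent of reads in 8 overhang classes, from long 5' overhangs (left, dark purple) through blunt ends (grey) to long 3' overhangs (right, dark orange). The de novo bar has the most 5' overhangs in all, 64.5%, and the largest class of 3' overhangs of 20 nt or more, 19.04%, while 3' overhangs of 5 to 9 nt (1.00%) and 10 to 19 nt (0.516%) are thin bands.

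The regular substrate tables give a measure of how far such shares vary between tables of that PCR. Over the 6 of them (Lig4-/- H2AX-/- lines 8 and 5, Lig4-/- lines A and B, and Lig4-/- 53BP1-/- lines B and C) 5' overhangs ranged from 19.5% to 59.5%, and 3' overhangs from 31.0% to 61.9%. The de novo table lay above the first range and below the second. It lay outside the range of the 6 tables in 8 of 10 classes, above in 4 and below in 4. Blunt ends (range 7.10% to 18.9%) and 5' overhangs of 10 nt or more (2.04% to 26.0%) were within. The length classes are parts of the 5' and 3' totals, so these are not separate results. For 5' overhangs of 5 to 9 nt the de novo share was only just above the range, at 16.1% against at most 15.6%. For 3' overhangs of 20 nt or more (range 2.66% to 10.8%) it was 5.00% without the 37-nt structure, within the range. The gap between the 2 PCRs was smaller than the largest gap among the 6 tables for both 3' overhangs (31.0 points) and 5' overhangs (39.9 points). Those 6 tables differ in genotype, cell line, run set (2, 4 or 6) and in whether a time is given, so this is no replicate spread.

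Line 5 shares the genotype and the regular PCR, but its libraries belong to run set 4 and carry no time. Its 5' overhangs held 32.8% and its 3' overhangs 57.9% of 76325 reads, which put line 8 between line 5 and the de novo table. The difference between lines 8 and 5 at the regular substrate was 8.79 points for 5' overhangs and -12.4 points for 3' overhangs. The nearest table to the de novo one within line 8 was that of RAG breaks at the Jk1 segment of the immunoglobulin kappa locus, with 56.1% 5' overhangs and 33.2% 3' overhangs. With that table in place of the regular one, the difference in 5' overhangs was 8.39 points and that in 3' overhangs -6.64 points. The Jk1 libraries were of the same run set and time as the regular ones.

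The balance within short overhangs was examined separately, after the class shares were seen. Of reads with an overhang of 1 to 4 nt, 86.1% (85.7 to 86.5) were 5' overhangs in the de novo table and 52.9% (52.4 to 53.4) in the regular one. The ratio of 5' to 3' overhangs in reads was thus 6.19 against 1.12. In structures it was 91 to 27 against 154 to 151, so 77.1% and 50.5% of short-overhang structures were 5' (Fisher's exact test on structures, p = 6.01e-07). For overhangs of 5 to 9 nt the share of 5' overhangs was 94.2% against 41.7% of reads. In the other tables the share among 1-to-4-nt overhangs was 24.5% in Lig4-/- line A, 25.9% in 53BP1 line C, 28.9% in Lig4-/- line B, 49.2% in line 5, 62.9% at Jk1 of line 8 and 72.8% in 53BP1 line B. The de novo share was above all of them. For overhangs of 10 nt or more the share of 5' overhangs was 36.6% of de novo and 40.7% of regular reads, and the direction rests on the 37-nt structure. Without the most abundant structure of each table it was 67.1% against 40.7% of reads. Over all listed structures it was 59.6% against 45.7% (Fisher's exact test on structures, p = 0.0325). The p-values of this balance were not adjusted, and structures that share a strand stop are not independent.

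Single overhang lengths showed where the classes shift. Of 57 lengths listed in both tables with at least 10 reads in either, 20 (35.1%) were at least 2-fold higher in share in the de novo table and 24 (42.1%) at least 2-fold lower. With each structure counted once, 20 were higher and 9 lower. The de novo table lists fewer structures, so a length with as many structures in both then counts as at least 2-fold higher. That count therefore does not decide whether the surplus of lower lengths holds beyond reads. With 1 table a side no test was made of these. Set against that background, all 9 of the 3' lengths from 1 to 9 nt were at least 2-fold lower, by 3.12- to 354-fold. Of the 9 5' lengths from 1 to 9 nt, 7 were higher and 2 lower, and only 2 were higher by 2-fold or more. Of the 31 3' lengths listed in both, 20 were lower and 9 higher by 2-fold. Of the 25 such 5' lengths, 4 were lower and 11 higher.

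The 5 most frequent overhangs in the de novo table were the 3' overhang of 37 nt (14.1%), then 5' overhangs of 1 nt (10.3%), 2 nt (10.2%) and 3 nt (9.57%), then blunt ends. In the regular table they were blunt ends, the 5' overhang of 2 nt (11.6%), the 3' overhang of 1 nt (7.84%), the 5' overhang of 1 nt (6.41%) and the 3' overhang of 2 nt (6.11%). The de novo profile is therefore a one-sided slope. From blunt ends it stayed near its top through the first 3 nt of 5' overhang, whereas the first nucleotide of 3' overhang dropped to 2.34%. The regular profile declined on both sides of the blunt end, with a peak at the 2-nt 5' overhang that stood above those at 1 nt and at 3 nt (2.99%). At 2 nt of 5' overhang the shares of the 2 PCRs were close, 10.2% and 11.6%, and the 8-nt length was the other one of the 9 at which the de novo share was lower.

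Among lengths with at least 1% of reads in either table, the largest ratios in favour of the de novo table were at 3' overhangs of 37 nt (14.1% against 0.250%, 56.5-fold) and 45 nt (1.25% against 0.104%, 12.0-fold) and at the 5' overhang of 13 nt (1.32% against 0.217%, 6.09-fold). The first 2 each rest on 2 structures in the de novo table, while the 13-nt length is spread over 8. The largest in favour of the regular table were at 3' overhangs of 7 nt (4 reads, 0.00580%, against 2.05%), 35 nt (also 4 reads, against 1.01%) and 8 nt (60 reads, 0.0870%, against 1.94%, 22.3-fold). The 7-nt and 8-nt lengths held 17 and 18 structures in the regular table and 1 each in the de novo table. The 3' overhang of 10 nt had 500 regular reads and is listed with none in the de novo table. Among 3' lengths with at least 10 reads, 21 with 4.63% of regular reads were listed only there, and 2 only in the de novo table.

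**Figure D3:**
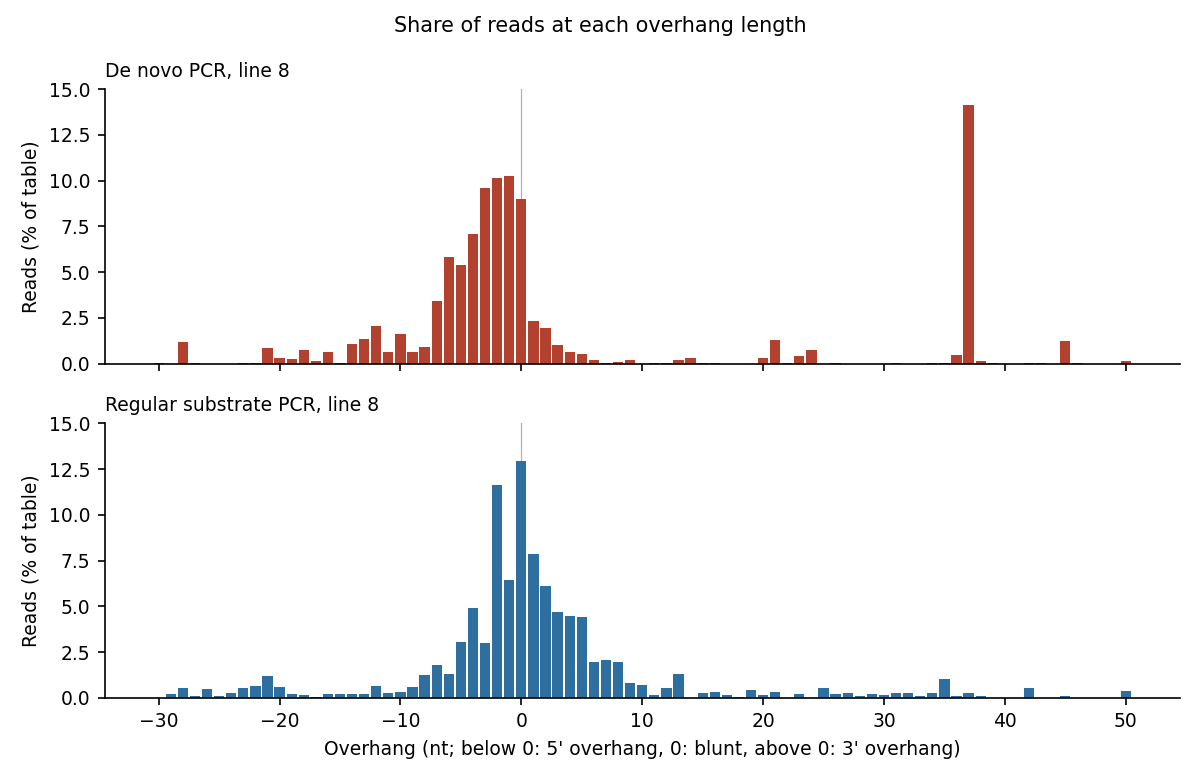
The horizontal axis is the overhang in nt, negative for 5' and positive for 3' overhangs, cut to -30 to 50, and the bars are the percent of reads of each pooled table at that length. Above, the de novo bars slope to the left from the blunt end and stand at 14.1% at 37 nt. Below, the regular bars spread to both sides of the blunt end, which holds 12.9%.

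No source used here says that the 2 PCRs count from the same base, so the spread of positions is given as widths and as distances within a table. Only the matching of single structures between the tables takes positions at face value. The 5'-ending strands of both tables spanned windows of the same width, 208 nt, from 121 to 328 in the de novo table and from 2 to 209 in the regular one. Within that window the de novo ends were packed more tightly. The middle 50% of reads spanned 27 nt (positions 142 to 169) in the de novo table and 69 nt (102 to 171) in the regular one, 2.56 times as wide. The width from the 5th to the 95th percentile was 101 nt against 177 nt. The de novo reads used 118 positions with an effective number of 47.6, the regular reads 165 with 95.2. With each structure counted once, the effective numbers were 95.7 and 125, a ratio of 1.31 in place of 2.00.

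The 3'-ending strand gave the same order. Its interquartile range was 35 nt against 70 nt and its effective number of positions 41.9 against 93.3. Line 5 at the regular substrate had an interquartile range of 100 nt for the 5'-ending strand. The de novo range of 27 nt was the narrowest of the 8 tables compared. Elsewhere it was 73 nt at Jk1 of line 8, 51 nt in Lig4-/- line A, 44 nt in Lig4-/- line B, 55 nt in 53BP1 line B and 41 nt in 53BP1 line C. Without its most abundant structure the de novo range was 36 nt, and without 3'-ending strands in the lowest 3 positions it was 41 nt. By effective number of 5' positions the de novo table, at 47.6, was not the lowest. That number was 37.0 in 53BP1 line C, 44.0 in Lig4-/- line A and 45.5 in Lig4-/- line B, and above 47.6 in the remaining tables. Without ends that stop within 10 nt of the lowest position of their table, the ratio of interquartile ranges was 1.54, and the leading structure is among the ends so removed.

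The 2 tables filled opposite parts of their own windows. This holds for distances within a table only, as the median 5' stops were listed at positions 158 (de novo) and 152 (regular). Counted from the lowest position of either strand in its own table, 59.8% of de novo reads lay within the first 40 nt and 79.1% within the first 60 nt, and 0.590% lay at 140 nt or beyond. Of regular reads 11.1% lay within the first 40 nt and 57.0% at 140 nt or beyond, with 37.2% in the single bin from 160 to 179 nt. The regular table had a second, smaller cluster at the start of its window, with 9.58% of reads within 20 nt. Ends with both strands in the lowest 3 positions held 3.24% of regular reads, 22.8% in Lig4-/- line A and 20.2% in Lig4-/- line B, but no read in the de novo table, which allows a share of up to 0.00535% by the exact interval. The lowest position was 2 in those regular tables and 120 in the de novo table, and whether these edges are the same kind of site is not known.

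What the de novo table had at its low edge were long 3' overhangs. In 16.6% of its reads (16.3 to 16.8) the 3'-ending strand stopped in the lowest 3 positions, while its 5'-ending strand did so in 0.0246%. Those reads fell in 20 structures, all of them 3' overhangs, of 14 to 175 nt. They included 18 of the 30 structures with a 3' overhang of 20 nt or more and 86.9% of the reads of that class. Position 121 was the leading stop of the 3'-ending strand, with 16.3% of reads in 6 structures. Paired with it were 5' stops at 158 (14.04%), 142 (21-nt overhang, 1.05%), 166 (45 nt, 0.597%), 157 (36 nt, 0.438%), 159 (38 nt, 0.138%) and 160 (39 nt, 0.0333%). So 1 stop of the 3'-ending strand was combined with several stops of the 5'-ending strand.

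The regular table lacked that pattern. Its 3'-ending strand stopped in the lowest 3 positions in 4.04% of reads, and those reads held 0.682% of its 3' overhangs of 20 nt or more. Its leading 3' stop, at position 165, held 5.22% of reads over 14 structures, of which the largest made up 19.7%. At position 121 of the de novo table the largest structure made up 86.1%. The next 3' stops of the de novo table, 161 and 160, held 5.61% and 5.34% of reads, close to the leading regular stop. Position 121 is 1 nt above the lowest position that the de novo table lists for either strand, and the part of that edge in the result was not tested. Without the ends whose 3'-ending strand stops in the lowest 3 positions, 77.3% of de novo reads were 5' and 12.0% 3' overhangs, against 43.3% and 44.5% of regular reads. The difference in 3' overhangs of 20 nt or more was then -4.51 points.

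The excess of 5' overhangs was present along the whole filled part of the de novo window. In bins of 20 nt that hold 10 structures or more, 5' overhangs outnumbered 3' overhangs in 7 of 7 de novo bins, with 50.9% to 97.4% of the bin's reads. In the regular table they did so in 6 of 10 bins, with 0% to 61.8%. The first de novo bin, with 21.4% of reads, held 97.4% 5' overhangs and 0.0948% 3' overhangs, and none of the latter were of 1 to 4 nt. The first regular bin held 29.6% 5' and 53.1% 3' overhangs, of which those of 1 to 4 nt made up 44.1% of the bin. A 3' overhang places the 3'-ending strand below the 5'-ending one, so long 3' overhangs cannot be listed at the very start of a window.

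The second de novo bin, from 20 to 39 nt, held the 37-nt structure and with it 45.3% 3' overhangs, of which those of 20 nt or more made up 41.1% of the bin. Beyond it the 3' share stayed between 20.8% and 27.6% in all 5 bins, and 5' overhangs held 51.5% to 65.8%. In the regular table the bin from 180 to 199 nt held 5.93% of reads in 20 structures, all of them 3' overhangs. With every bin given equal weight, the difference was still 21.5 points for 5' overhangs and -25.2 points for 3' overhangs. Blunt ends were then 3.73 points higher in the de novo table, the opposite of the difference over reads.

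**Figure D4:**
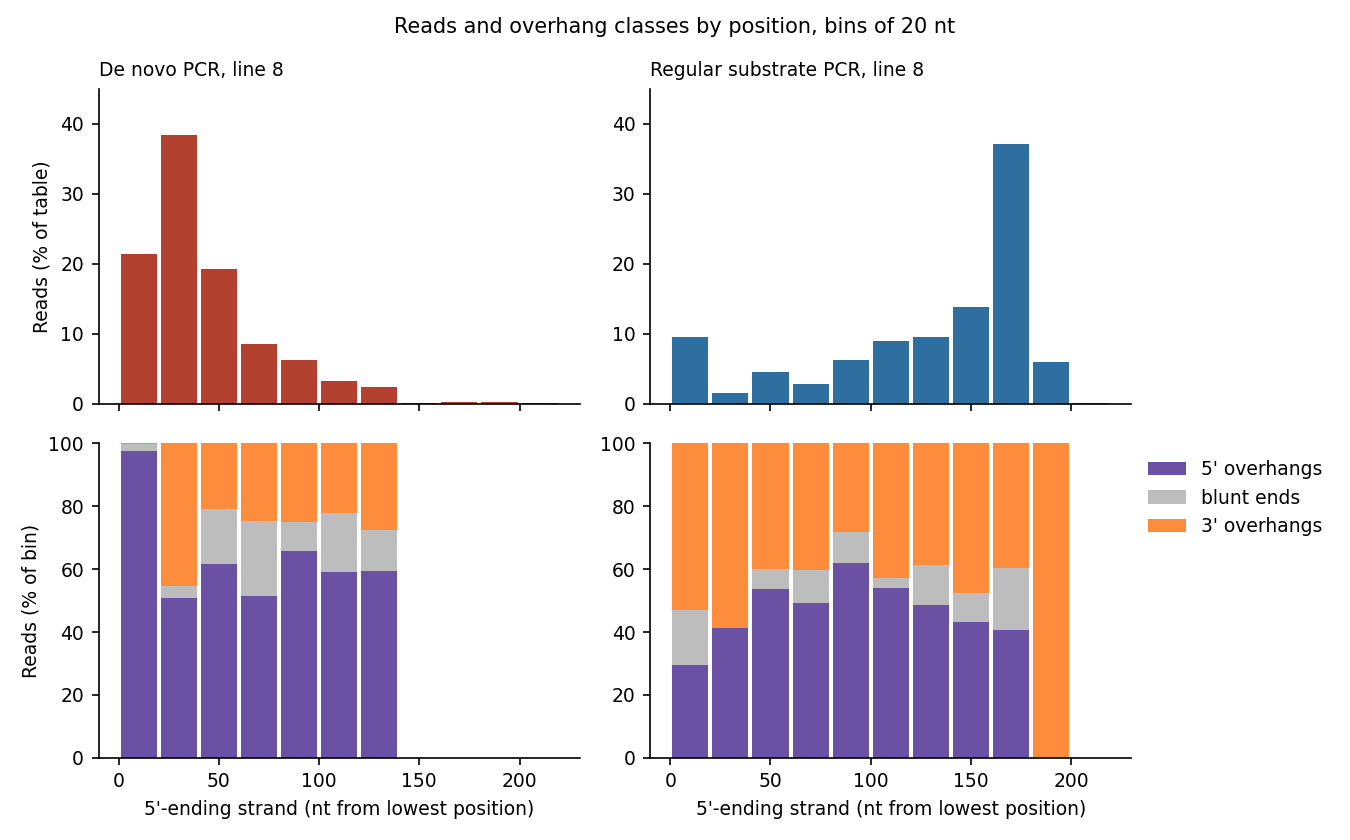
The upper panels show the percent of a table's reads in bins of 20 nt, by the distance of the 5'-ending strand from the lowest position of its own table, and the lower panels the percent of 5' overhangs, blunt ends and 3' overhangs in each bin with 10 structures or more. De novo reads pile up in the first 60 nt (79.1%) and regular reads between 160 and 179 nt (37.2%), and 5' overhangs are the larger overhang class in 7 of 7 de novo and 6 of 10 regular bins. Each panel has its own zero point, and whether the left and right ones are the same base is not known.

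Because the de novo reads came mixed with regular ones, structures listed in both tables were counted, taking the positions at face value. The tables shared 35 pairs of position and overhang, which are 11.9% of de novo and 5.00% of regular structures. They held 14.9% of de novo and 6.52% of regular reads. Of the 10 most abundant de novo structures 2 were listed in the regular table. They were the blunt end at 161, with 4 regular reads, and a 3-nt 5' overhang at position 138, with 128. Of the 10 most abundant regular structures 1 was listed in the de novo table, the 2-nt 5' overhang at position 171 (187 de novo reads, 0.271%). Counts of pairs shared with other tables follow, with their percent of de novo and of the other table's structures. They were 41 with 53BP1 line B (14.0%, 4.07%), 20 with Jk1 of line 8 (6.83%, 3.33%) and 19 with 53BP1 line C (6.48%, 3.61%). For Lig4-/- line A they were 14 (4.78%, 1.56%), for line 5 13 (4.44%, 2.21%) and for Lig4-/- line B 11 (3.75%, 1.54%). Pairs shared with Jk1, another locus, held 11.7% of de novo reads and 4 of the 10 most abundant de novo structures. The part of mixed reads in any shared pair was not tested. Between the 2 tables of line 8, 33.3% of regular reads stopped below the lowest de novo position, and 10.2% of de novo reads stopped above the highest regular one. Without the pairs shared by these 2 tables, 5' overhangs held 64.6% of de novo and 38.5% of regular reads.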

How the data were processed

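Per the labels' protocols, a single-stranded DNA ligase and then bisulfite were applied to genomic DNA, and its PCR products were sequenced from both ends (MiSeq). For each group the authors deposited 1 table of end structures with a position, an overhang and the read count, which is not normalised. The 3 libraries of a group are pooled in it. Position and overhang are other whole numbers, read here as nt. No coordinates are printed. For the aligner, read filters, primers and genome build: not given in the sources used here. The work used 9 deposited tables: the de novo table, 6 regular substrate tables, Jk1 of line 8 and KpnI.

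Tests and intervals came from scipy 1.17.1, shares from numpy 2.4.6 with pandas 2.3.3, and plots from matplotlib 3.10.9, all under Python 3.11.15. Intervals are exact Clopper-Pearson intervals at 95%, and the threshold of Fisher's exact tests was 0.05. Depth was 68969 and 72923 reads. The structures named are the 5 most abundant of each table and the leading one of each length class. The overhang lengths named are the 5 most frequent and, among those with 10 reads in either table and 1% in either, the 3 with the largest ratios in each direction. Others (the 2 leading structures shared by both tables, the stops at 121 and around 161) were chosen after their values were seen. The tables compared, classes and rules were chosen with earlier results of these data known. Alternatives counted structures once, set minimum reads, left out abundant, shared or edge structures, weighted bins equally, called ends with 1 nt of difference blunt, and exchanged the regular table. Those on low-edge ends, Jk1 and the balance of 5' and 3' overhangs were added after seeing the data. The calculation was tested on simulated data.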

Additional observations from a re-analysis of the deposited data

How the results depend on the processing

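Over 18 results and 174 alternatives, 151 kept their direction and side of the threshold or moved by less than the limit set for them. For shares of reads this says little of size, because at this depth small differences also pass the test. The blunt-end difference went from -3.96 points to -0.609 without the most abundant structure of each table and to -0.321 with line 5 as the regular table. That in 5' overhangs went from 22.9 to 8.39 points against Jk1. These alternatives count among the 151. Some of the 151 could not change. Both tables list no structure below 2 reads, so requiring 2 reads or more removed nothing. The leading structure of neither table has an overhang of 1 to 4 nt, so leaving it out left that balance as it was. The shares of 5' overhangs and of 3' overhangs, and the balance within 1-to-4-nt overhangs, kept their direction and side of the threshold under all alternatives run that allow a test. Counted once per structure, the difference was 0.453 points for blunt ends (direction turned), and the test no longer passed for 3' overhangs of 10 to 19 nt (-1.73 points, p = 0.400), 3' overhangs of 20 nt or more (1.81 points, p = 0.438) and 5' overhangs of 5 to 9 nt (4.07 points, p = 0.131), by Fisher's exact test adjusted over 10 classes. The excess of 3' overhangs of 20 nt or more turned to -1.58 points without the most abundant structure of each table, -1.32 without the 10 most abundant, -4.55 without ends within 10 nt of the lowest position and -4.51 without 3'-ending strands in the lowest 3 positions. Against Jk1, 5' overhangs of 10 nt or more turned to -0.917 points. With bins of equal weight, which allow no test, the differences were -25.2 points for 3' overhangs, 21.5 for 5' overhangs, 3.73 for blunt ends (turned), -14.1 for 3' overhangs of 1 to 4 nt, -12.3 for 5 to 9 nt, -4.97 for 10 to 19 nt and 6.12 for at least 20 nt, and 13.2 for 5' overhangs of 1 to 4 nt and 4.96 for 5 to 9 nt. The ratio of interquartile ranges went from 2.56 to 1.54 without ends within 10 nt of the lowest position and to 1.46 without 3'-ending strands in the lowest 3 positions. The ratio of effective positions went from 2.00 to 1.31 with structures counted once, and that of effective structures from 3.39 to 1.82 with line 5 as the regular table. The number of lengths lower by 2-fold went from 24 to 9 with structures counted once. The causes of these changes were not tested, apart from the reads removed by each alternative.

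The tables pool their libraries, so no replicate was left out. No paired analysis was possible because the tables hold no values per replicate number. Depth limits only rare structures, and the number of amplified molecules behind the reads is unknown.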
